A study of Mus musculus with 8 samples.

Results

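Cirbp and Rbm3 encode the cold-inducible RNA-binding proteins of mammalian cells, and their transcripts were measured here in whole liver of 3 control and 5 POMCMfn2KO mice. The members are all probe sets whose platform symbol is Cirbp or Rbm3, which gave 3 of the 45101 probe sets on the array. Cirbp has 1 probe set. Rbm3 has 2, called here the brighter and the dimmer by their mean level, and both also carry the symbol of its pseudogene Rbm3-ps. No probe set is annotated to Rbm3 alone, so the values of these 2 are given as those of Rbm3 or Rbm3-ps.

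The mice were 6 weeks old, of a mixed C57Bl/6J, FVB/N and 129 strain, on standard chow and a cycle of 12 h light and 12 h dark. The controls carry the genotype label WT, and POMCMfn2KO mice lack the mitochondrial fusion gene Mfn2 in POMC neurons, the proopiomelanocortin cells of the hypothalamus; the driver of the deletion and any alleles carried by the controls are not given in the sources used here. One array was run per mouse, and the series names the mice of a group as biological replicates. The labels give no sex, no time of day at collection and no body temperature.

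CIRBP and RBM3 are small proteins with 1 RNA-recognition motif and a glycine-rich, arginine-rich tail. Their transcripts accumulate when cells are mildly cooled and decline when cells are warmed, opposite to heat shock genes. In mouse liver Cirbp mRNA varies over the day opposite to body temperature. CIRBP protein binds the transcript of Clock and influences the choice of polyadenylation site. Rbm3 also binds RNA and promotes translation in cooled cells.

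The sequences used held no entry for Rbm3, so no stretch upstream of Rbm3 was searched. The stretch upstream of the first annotated Cirbp start is shown because Cirbp is the member that fell. It was taken from RefSeq (GRCm38.p6, plus strand, chr10:80167589-80167838) and ends at the last base before that start. Capitals mark the only match to TCCCCGCC, the mild cold response element.

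Cirbp: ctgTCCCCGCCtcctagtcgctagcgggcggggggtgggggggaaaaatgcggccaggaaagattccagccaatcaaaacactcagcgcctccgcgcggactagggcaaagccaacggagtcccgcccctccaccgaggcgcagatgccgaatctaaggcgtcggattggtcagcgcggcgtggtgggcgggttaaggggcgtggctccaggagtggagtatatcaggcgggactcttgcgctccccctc

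The match begins 247 bases before the start. On either strand, TCCCCGCC occurred in 5.38% of 32851 RefSeq windows running from 250 bases before to 50 after a start. Neither of the 2 Cirbp windows held GAANNTTC, the core of the heat shock element (7.86% of windows), the E-box CACGTG (7.15%) or TTATGNAA, searched as a D-box (3.38%); the window of the second Cirbp start also lacked TCCCCGCC. The Hspa1b window held TCCCCGCC and GAANNTTC once each, both Hsph1 windows held GAANNTTC and CACGTG once each, and the Dbp window held none of the 4. A match describes letters and is not a binding site.

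Cirbp was lower in every POMCMfn2KO liver than in every control liver. Its log2 levels were 9.22, 9.09 and 9.01 in controls 1 to 3. In POMCMfn2KO 1 to 5 they were 8.27, 8.09, 8.25, 8.27 and 7.84. The groups did not overlap, with POMCMfn2KO 5 lowest. Cirbp fell from 9.11 ± 0.10 (SD, n = 3) to 8.14 ± 0.19 (SD, n = 5), a 1.95-fold drop (log2 difference -0.96, SE 0.11, 95% interval -1.20 to -0.72; limma adjusted p = 0.000942 over 11987 genes). An exact permutation test of the value gave 2-sided p = 0.0357, the smallest that 3 against 5 arrays allow. Of all genes tested, 18.0% passed the same threshold, 10.9% as falls and 7.02% as rises, and the groups did not overlap in 28.5%. Cirbp stood at rank 95 of 11987 by p and at rank 136 among the most negative differences.

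**Figure D1:**
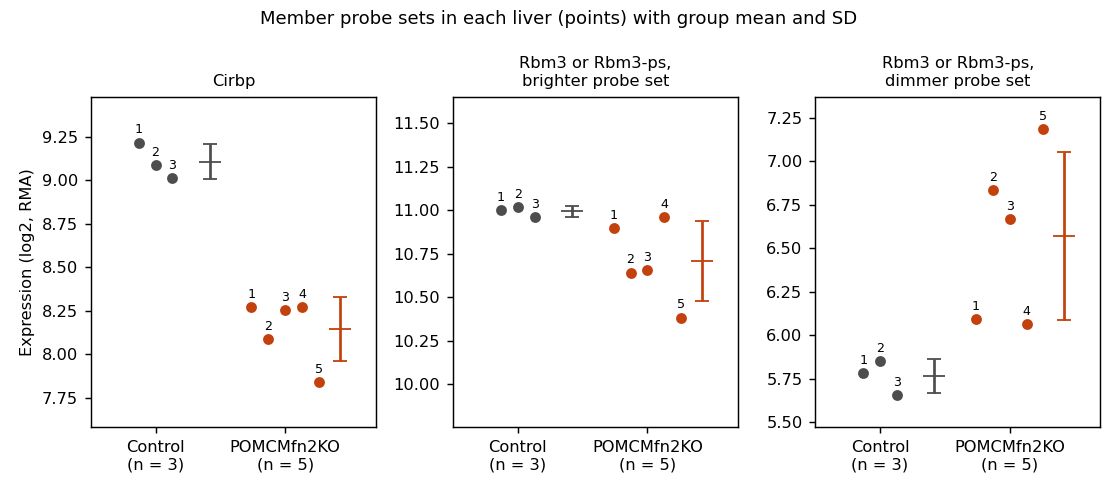
Log2 expression of the 3 member probe sets in each liver (points, numbered by replicate; grey Control, orange POMCMfn2KO), with mean and SD beside the points; the axes differ in level but span the same log2 range. Cirbp is lower in all 5 POMCMfn2KO livers, the brighter Rbm3 or Rbm3-ps probe set spreads downwards from the control level, and the dimmer one spreads upwards.

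The brighter probe set of Rbm3 or Rbm3-ps did not pass. It read 11.00, 11.02 and 10.96 in the controls. The POMCMfn2KO livers read 10.90, 10.64, 10.66, 10.96 and 10.38. POMCMfn2KO 4 lay inside the narrow control range and POMCMfn2KO 5 was lowest, so the groups overlapped. The means were 10.99 ± 0.03 (SD, n = 3) and 10.71 ± 0.23 (SD, n = 5), a log2 difference of -0.28 (SE 0.12, 95% interval -0.56 to -0.01; limma adjusted p = 0.137; exact permutation p = 0.0714). The interval before adjustment reaches from a drop of 0.56 to almost 0, so a change smaller than that of Cirbp is not excluded by a p that missed the threshold.

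The dimmer probe set of Rbm3 or Rbm3-ps differed in the other direction. It read 5.78, 5.85 and 5.66 in the controls, about the level of 5.80 below which probe sets were left out as dim. The POMCMfn2KO livers read 6.10, 6.84, 6.67, 6.06 and 7.18, all above the controls, with POMCMfn2KO 1 and 4 nearest to them. The means were 5.77 ± 0.10 (SD, n = 3) and 6.57 ± 0.48 (SD, n = 5), a measured log2 difference of 0.81. It was tested only because its POMCMfn2KO values lifted its overall mean over the dim level, which its control mean does not reach, so the difference has no measured baseline and no fold is given. Among the 22519 probe sets tested, its limma adjusted p was 0.0499, just inside the threshold, and 0.0644 with no filter; leaving out any single control, or any of POMCMfn2KO 2, 3 and 5, took it above 0.05 (adjusted p from 0.0580 to 0.162). The control values of this probe set lie near background, where a level is only loosely measured.

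Over probe sets as over genes, Cirbp was past the threshold (limma adjusted p = 0.00106), where 15.3% of all probe sets tested passed (8.47% down, 6.86% up) and the groups did not overlap in 26.3% (13.8% with POMCMfn2KO lower). No count over the 3 member probe sets is drawn from this, because the dimmer one entered the test through the group in which it was high. Rbm3os, a noncoding RNA named for the opposite strand of Rbm3, like it on the X chromosome, read between 4.07 and 4.25 in all 8 arrays, below the dim level, and was not tested.

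Changes were also set against each other within each array. Relative to the brighter Rbm3 or Rbm3-ps probe set, Cirbp differed by -0.68 (SD 0.09 in controls and 0.11 in POMCMfn2KO). The exact permutation test gave p = 0.0357, the smallest possible with these arrays. This p is not adjusted, since the other comparisons made used the dimmer probe set. Each of the 5 POMCMfn2KO livers lay between -0.80 and -0.52 of the control mean. The Cirbp difference was therefore larger than that of the brighter Rbm3 or Rbm3-ps probe set in every POMCMfn2KO liver. The comparisons with the dimmer probe set are not given, since its control values are not above background.

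The members ordered the 5 POMCMfn2KO livers alike, apart from sign. From lowest to highest, Cirbp and the brighter Rbm3 or Rbm3-ps probe set both ran 5, 2, 3, 1, 4. The dimmer probe set ran 4, 1, 3, 2, 5, the exact reverse. Some places in these orders rest on near ties. Cirbp read 8.271 and 8.273 in POMCMfn2KO 1 and 4. The brighter probe set read 10.64 and 10.66 in POMCMfn2KO 2 and 3, and the dimmer read 6.06 and 6.10 in 4 and 1. After subtraction of each group's mean, Cirbp and the brighter probe set correlated with Pearson r = 0.85 over 8 arrays (exact permutation p within genotype = 0.00694, adjusted 0.0208 over 3 pairs) and Spearman rho = 0.83 (exact permutation p = 0.0333, adjusted 0.0750); r was 0.58 without the 2 arrays farthest from the median, control 3 and POMCMfn2KO 5. The 2 probe sets of Rbm3 or Rbm3-ps gave r = -0.96 (exact permutation p = 0.0250, adjusted 0.0375) and rho = -0.90 (exact permutation p = 0.05, adjusted 0.0750), and r = -0.88 without POMCMfn2KO 4 and 5. Cirbp with the dimmer probe set gave r = -0.78 (exact permutation p = 0.0639, adjusted 0.0639) and rho = -0.74 (0.0972, adjusted 0.0972), with r = -0.72 without control 3 and POMCMfn2KO 5. These pairs were added after the values were seen, and the points share arrays and their normalization. The dimmer probe set was tested only through its POMCMfn2KO values, and its control values lie near background. Its pairs are therefore a description, and no result is drawn from their p. Some other genes deviated with the brighter probe set more closely than Cirbp did, such as Dcxr (r = 0.98) and Slc22a2 (r = 0.99). Close agreement with the brighter probe set is therefore not confined to Cirbp. Both genes were picked as among those most like that probe set, so how common such agreement is was not measured.

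Hspa1b and Hsph1, the inducible cytosolic chaperones HSP70 and HSP110, and Dbp, a PAR bZIP transcription factor that is an output of the clock, were the partners for the members. Hspa1b read 9.03, 8.90 and 8.96 in controls, and 11.32, 11.19, 11.52, 10.53 and 11.18 in POMCMfn2KO 1 to 5. Hsph1 read 8.81, 8.96 and 8.84 in controls, and 10.47, 10.70, 10.79, 9.99 and 11.00 in POMCMfn2KO. Dbp read 10.14, 10.06 and 10.01 in controls, and 8.25, 7.90, 7.79, 7.86 and 7.70 in POMCMfn2KO. In all 3 the groups were apart, the chaperones high and Dbp low in POMCMfn2KO liver. All 3 Hspa1b probe sets rose (2.18 to 2.59), both Hsph1 probe sets rose (1.72 and 1.84) and both Dbp probe sets fell (-2.17 and -1.75); Hspa1b probe sets can also bind its near-identical copy Hspa1a.

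Because the groups do not overlap for Hspa1b, Hsph1, Dbp and Cirbp, a correlation over all 8 arrays would restate the difference between genotypes, and none is given. Deviations from the group means were correlated instead, in a family of 9 relations. Cirbp deviated opposite to Hsph1 (r = -0.66, exact permutation p = 0.183; rho = -0.79, exact permutation p = 0.0625), with Dbp (r = 0.59, exact permutation p = 0.229; rho = 0.55, exact permutation p = 0.238) and hardly with Hspa1b (r = -0.07, exact permutation p = 0.954; rho = 0.10, exact permutation p = 0.864). None of these passed after adjustment over the family (adjusted p for r 0.358, 0.358 and 0.954; for rho 0.188, 0.503 and 0.864). Without control 3 and POMCMfn2KO 5, the farthest arrays, r was -0.50, 0.29 and -0.07. Without POMCMfn2KO 5 alone r was -0.37 with Hsph1 and 0.33 with Dbp. The relation with Hspa1b depended on POMCMfn2KO 4, the liver lowest in Hspa1b: without it r was 0.73 (adjusted exact permutation p = 0.260).

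The probe sets of Rbm3 or Rbm3-ps deviated most closely with Hsph1. For the brighter probe set r was -0.89 with Hsph1 (exact permutation p = 0.0444; rho = -0.90, exact permutation p = 0.05), 0.65 with Dbp (exact permutation p = 0.239; rho = 0.52, exact permutation p = 0.279) and -0.45 with Hspa1b (exact permutation p = 0.438; rho = -0.31, exact permutation p = 0.522). For the dimmer probe set r was 0.88 with Hsph1 (exact permutation p = 0.0278; rho = 0.95, exact permutation p = 0.0194), -0.65 with Dbp (exact permutation p = 0.192; rho = -0.43, exact permutation p = 0.368) and 0.40 with Hspa1b (exact permutation p = 0.556; rho = 0.26, exact permutation p = 0.597). After adjustment over the 9 relations the lowest p was 0.200 for r and 0.175 for rho, so no relation passed. The control values of the dimmer probe set lie near background, so its relations are a description only. Without POMCMfn2KO 4 and 5, r with Hsph1 was -0.68 for the brighter and 0.77 for the dimmer probe set. With Dbp it was 0.93 and -0.81, and with Hspa1b it was 0.03 and -0.13.

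**Figure D2:**
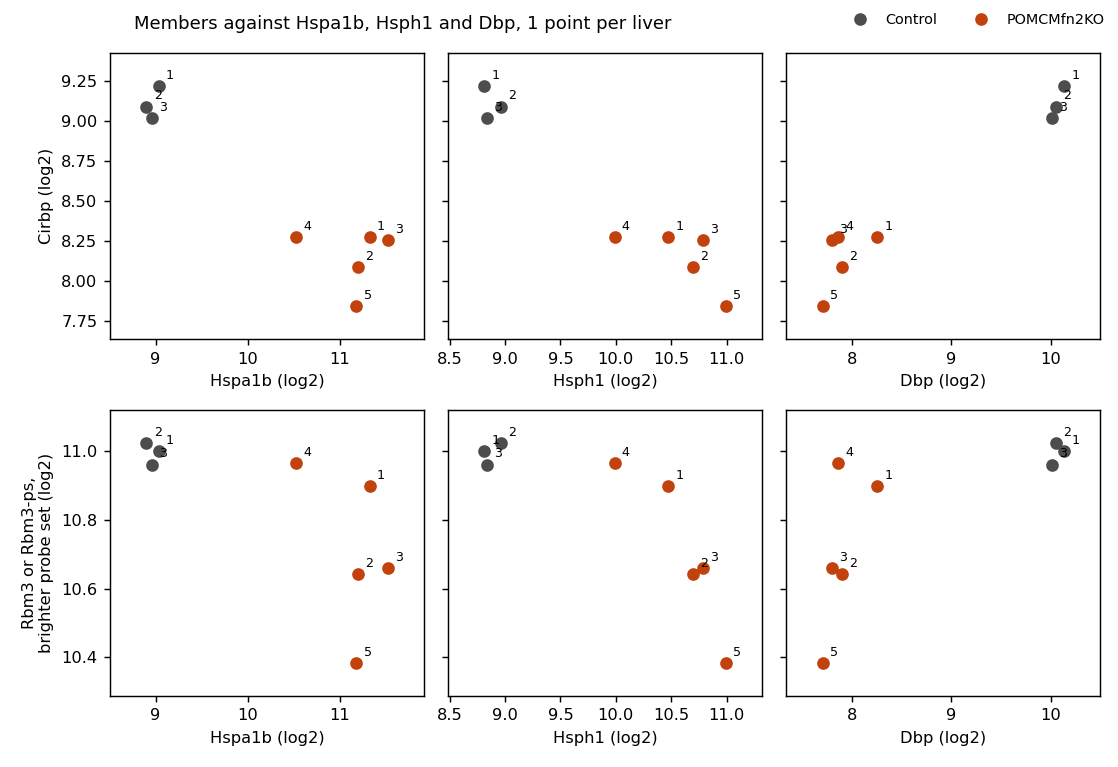
Log2 level of Cirbp (upper row) and of the brighter Rbm3 or Rbm3-ps probe set (lower row) against Hspa1b, Hsph1 and Dbp, with 1 numbered point per liver (grey Control, orange POMCMfn2KO). The genotypes form separate clusters along each horizontal axis, and POMCMfn2KO 5 is the lowest in both rows.

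Most of the heat shock proteins and cochaperones that were tested passed, nearly all upwards. Of 22 tested, 12 rose and 1 fell, 59.1% against 18.0% of all genes, with a median difference of 0.37 against -0.02. Besides Hspa1b and Hsph1, Chordc1, an HSP90 cochaperone, rose from 8.88 ± 0.02 to 10.08 ± 0.24, and Dnajb1, an HSP40 partner of HSP70, rose from 8.88 ± 0.14 to 9.56 ± 0.09 (limma adjusted p = 0.00122). The gene that fell was the small heat shock protein Hspb8 (-0.54). Without POMCMfn2KO 2 and 3, 7 rose, where rises over all genes dropped from 842 to 239.

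Among systemically cued and temperature-cued rhythmic liver genes, 7 of 13 rose and none fell, 53.8% against 18.0% of all genes, with a median of 0.67. After Hspa1b and Hsph1, the lowest p values were those of Hspa5, the endoplasmic reticulum chaperone BiP (0.87; 1.09 and 0.10 on other probe sets), and Hspa8, the constitutive HSP70 (0.73). All 7 that rose are chaperones or cochaperones, and 6 of them are also in the heat shock list. The clock gene Per2 (-0.10, limma adjusted p = 0.459) and the nocturnin gene Noct (-0.33, limma adjusted p = 0.573) did not pass. The count of rises was 4 without POMCMfn2KO 2 and 3, where rises over all genes dropped from 842 to 239. Without POMCMfn2KO 1, 1 gene of the list fell, where falls over all genes grew from 1310 to 1642.

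Of 18 splicing regulators tied to temperature, 8 rose and none fell, 44.4% against 18.0% of all genes, with a median of 0.24. Hnrnph1, a nuclear ribonucleoprotein, rose from 10.18 ± 0.09 to 10.79 ± 0.15 (limma adjusted p = 0.00387). The SR protein kinase genes Clk4 (0.30) and Clk3 (0.26) and the splicing repressor Srsf10 (0.40) rose by less. Clk1 (0.21, adjusted p = 0.0934) did not pass. This count was 3, 3 and 2 without control 1, 2 and 3, 5 and 3 without POMCMfn2KO 2 and 3 in turn, and 1 without both, when Clk3, Clk4 and Srsf10 were lost. Clk3 was also lost without control 2 or 3 and Srsf10 without control 1 or 3 or POMCMfn2KO 3. With replicate numbers as a block the count of rises was 2. Rises over all genes dropped too, from 842 to 325, 286 and 303 without control 1, 2 and 3. They numbered 570 and 507 without POMCMfn2KO 2 and 3 in turn, 239 without both and 715 with the block.

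Other RNA-binding proteins with a cold shock domain or glycine-rich tail stayed near the background. Of 17 tested, 3 rose and 1 fell, 23.5% against 18.0%, with a median of 0.15. The splicing repressor Tardbp (0.46), Rbm14 (0.42; 0.04 to 0.40 on other probe sets) and Rbm4b (0.29) rose, and Carhsp1, a cold shock domain protein, fell (-0.44). Ybx1, a cold shock domain protein that packages mRNA, differed by 0.03. Carhsp1 lost its call without control 1 or 3 or without POMCMfn2KO 2 and 3 together, Rbm14 without control 2 or 3, and Rbm4b without control 1 or 3 or POMCMfn2KO 2 or 3. In all, 1 member rose without control 3, and 5 rose without POMCMfn2KO 4. Rises over all genes went from 842 to 303 and 1156 in these settings.

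Clock and PAR bZIP genes passed in both directions: of 16 tested, 4 rose and 8 fell, 75.0% against 18.0% of all genes, with a median of -0.28. After Dbp, the lowest p values were those of its relative Tef (-0.71; -0.06 on another probe set), the repressor Cry1 (1.61) and the activator Arntl (0.68; 0.13 on another probe set). Clock, whose transcript CIRBP binds, rose from 8.51 ± 0.02 to 8.87 ± 0.12 (limma adjusted p = 0.0125). The count of falls was 4, 5 and 3 without control 1, 2 and 3, 5 and 4 without POMCMfn2KO 2 and 3 in turn, 3 without both, and 4 with replicate numbers as a block. Falls over all genes dropped too, from 1310 to 496, 534 and 560 without control 1, 2 and 3. They numbered 913 and 892 without POMCMfn2KO 2 and 3 in turn, 401 without both and 1176 with the block. The 5 lists are described by counts and medians only.

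**Figure D3:**
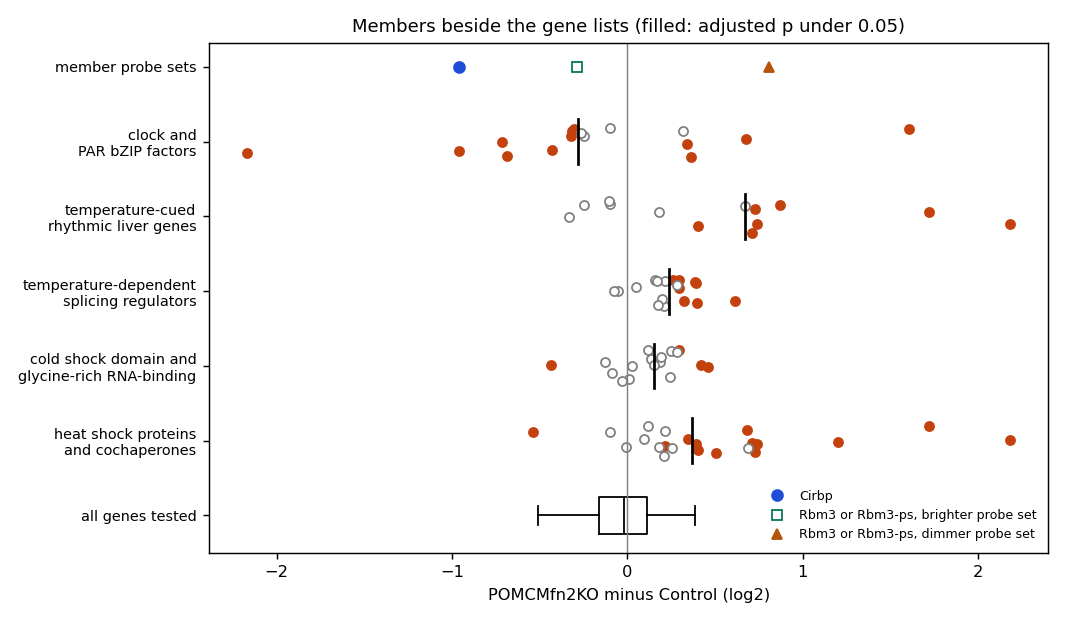
Log2 difference, POMCMfn2KO minus Control, of each tested gene in the 5 lists (filled, adjusted p under 0.05; open, not past) with the list median as a vertical bar, the 3 member probe sets above, and all genes tested below (box, quartiles; whiskers, percentiles 5 and 95). Cirbp lies left of the whisker of all genes, while the chaperones and splicing regulators lie mostly to the right of 0.

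By likeness of profile over the 8 arrays (Pearson r of log2 values, a description that mainly follows the difference between genotypes), the genes nearest to Cirbp were Amn1 (r = 0.99, log2 difference -0.55; -0.13 and -0.26 on other probe sets above the dim level, -0.24 in the mean of all), Gna12 (0.99, -0.50), a G protein subunit, Hscb (0.99, -0.70), a cochaperone of iron-sulphur cluster assembly, Apoa2 (0.98), an apolipoprotein of HDL, and Steap4 (0.98, -1.12), a metalloreductase. All but Apoa2 (-0.09, adjusted p = 0.250) fell. The most opposite were Cpsf6 (r = -0.99, 0.51), a subunit of the factor that sets the site of mRNA cleavage and polyadenylation, AW209491 (-0.99, 0.24), Clk4 (-0.99, 0.30), Naa16 (-0.99, 0.86) and Tbpl1 (-0.99, 0.30), all of which rose. Both other Cpsf6 probe sets above the dim level gave 0.54 and 0.63. Gna12 lost its call with the mean of all probe sets (-0.19, adjusted p = 0.164), AW209491 lost its call without any single control, and Tbpl1 without control 1 or 2 or with the mean of all probe sets (0.18, adjusted p = 0.0998); both also lost it without POMCMfn2KO 2 and 3, as did Clk4.

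Nearest to the brighter Rbm3 or Rbm3-ps probe set were Dcxr (r = 0.99), a carbonyl reductase of sugar metabolism, Oat (0.99), ornithine aminotransferase, Ptrhd1 (0.98), Slc22a2 (0.98), an organic cation transporter, and Cbr4 (0.98), a mitochondrial reductase. The most opposite were Man1a2 (-0.99), a Golgi mannosidase, Srprb (-0.99), a subunit of the signal recognition particle receptor, Nfxl1 (-0.98), Gapvd1 (-0.98) and Slc5a3 (-0.98), the myo-inositol transporter. Of these 10, Nfxl1 alone passed (0.56, limma adjusted p = 0.0431), and it was lost without any single control or POMCMfn2KO 2 or 3. Without POMCMfn2KO 4, Dcxr, Oat, Cbr4 and Slc5a3 passed, and without POMCMfn2KO 1 Ptrhd1 did. Oat, like the probe set it resembles, varied far more among POMCMfn2KO livers (12.92 ± 0.70) than among controls (13.78 ± 0.02).

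Of the protein-coding neighbours of the members, 1 passed, where 18.0% of all genes did, so the count is near the background. Of 4 genes on either side of Cirbp on chromosome 10, 7 were tested and 1, Midn, the adjacent gene, fell (-0.35, limma adjusted p = 0.0121, lost without control 1 or 3); on the other side Fam174c differed by 0.10 (adjusted p = 0.572). Of the 8 neighbours of Rbm3, 4 were tested and none passed, with Wdr13 at -0.03 (adjusted p = 0.878) and Tbc1d25 at 0.15 (adjusted p = 0.127) on either side. Neighbours were chosen by position in the RefSeq table after the members' values were seen.

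Liver identity and other cells were checked with 12 marker lists. The 7 hepatocyte markers averaged 14.26 to 14.29 in controls and 14.27 to 14.45 in POMCMfn2KO. In 11 of 12 lists the groups overlapped. The exception was the neutrophil list, with 3 of 4 markers named (6.56 to 6.71 against 5.38 to 5.78). In it S100a9, a calprotectin subunit, fell (-1.56) and Ngp (-0.19) did not pass. S100a8, also named, was left out as dim on average, though not below the dim level in every array. The part of the neutrophil list in the fall of Cirbp was not tested. No B cell or adipocyte marker had a mean at or above the dim level, and only 1 T and NK cell and 1 erythroid marker had. Overlap in these lists is mostly of values near background and does not check the content of those cells. The 9 pancreatic acinar markers averaged 10.66 and 10.77 in POMCMfn2KO 2 and 3 and 6.08 to 6.26 in the other 6 arrays. Without these 2 arrays the fall of Cirbp was as large (-0.98, limma adjusted p = 0.0118), the brighter Rbm3 or Rbm3-ps probe set gave -0.25 (adjusted p = 0.365) and the dimmer gave 0.68 and lost its call (adjusted p = 0.209). In whole tissue, fewer cells of a type and less RNA per cell cannot be told apart. Mfn2 itself, deleted in neurons and not in liver, read 9.83 to 9.97 in controls and 9.37 to 9.98 in POMCMfn2KO (adjusted p = 0.169; 0.0167 without POMCMfn2KO 1), which does not check the labels.

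The fall of Cirbp passed under all 17 alternatives tried, with log2 differences of -1.01 to -0.89 and limma adjusted p of 0.000173 to 0.0118. Changing the filter or averaging probe sets could alter only its p, since Cirbp has 1 probe set. The brighter Rbm3 or Rbm3-ps probe set passed under none of 17 (adjusted p 0.0525 to 0.365), and its difference turned to 0.26 when both probe sets were averaged.

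**Figure D4:**
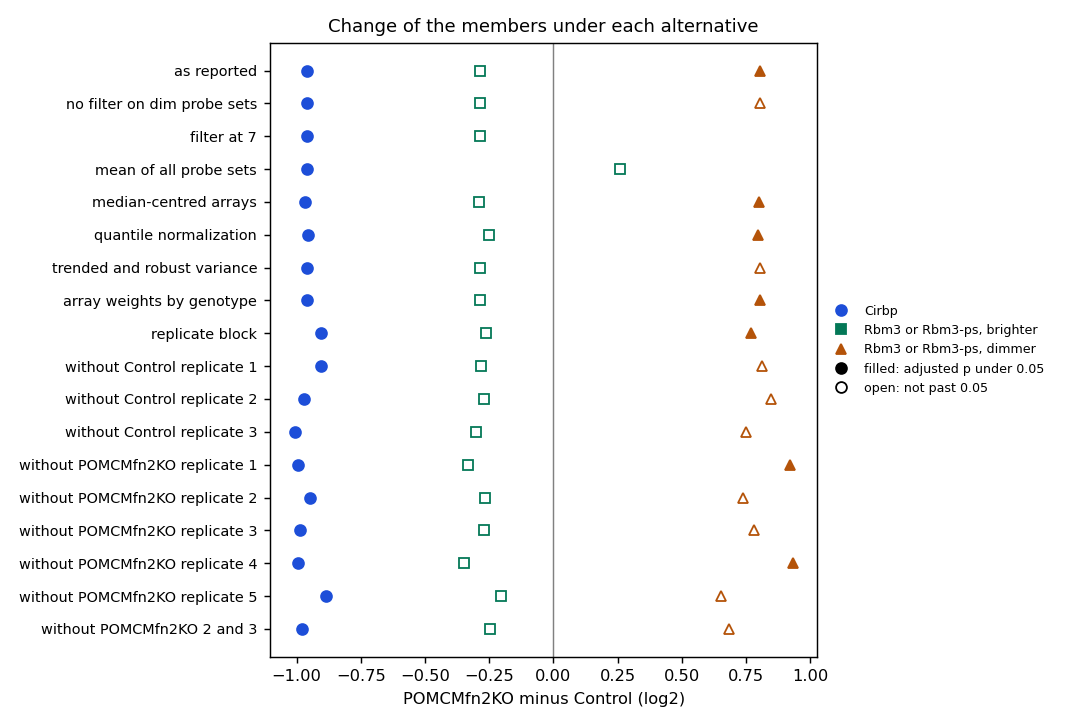
Log2 difference, POMCMfn2KO minus Control, of the 3 member probe sets as reported and under each alternative (filled, adjusted p under 0.05; open, not past). Cirbp is filled in every line, the brighter Rbm3 or Rbm3-ps probe set is open in every line and right of 0 only in the average over both probe sets, and the dimmer one is open in 9 of its 15 alternatives.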

How the data were processed

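The deposited values are log2 levels per probe set, for which the submitters' processing notes name RMA and the affy package without versions; they were not transformed again, and the arrays' medians lay between 5.79 and 5.81. Of 45101 probe sets, 64 were controls, 34945 had 1 gene symbol, 932 several and 9160 none. The brightest probe set stood for each of 18193 genes, with Rbm3/Rbm3-ps added as 1 unit; a mean under 5.80, the median of all probe sets that are not controls, excluded 6207, leaving 11987. Tests used limma 3.58.1 in R 4.3.3 (no trend, not robust), 2-sided, Benjamini-Hochberg threshold 0.05, repeated over 22519 probe sets. Single values had exact permutation tests over 56 splits (SciPy 1.17.1); deviations were permuted within genotype (720 orders). The number of arrays limits the precision. The fit was tested on simulated data.

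The members, lists and partners were chosen with earlier results of these data known. Named genes were the members, partners and Mfn2, the 4 lowest p of each list, and the 5 most alike and most opposite. Hspb8, Clk1, Per2, Noct, Ybx1, Clock, S100a8, S100a9, Ngp, Alas2 and the neighbours were chosen after their values were seen. Alternatives changed filter, probe set, scaling, variance model, replicate block and arrays. Figures used matplotlib 3.10.9.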

Additional observations from a re-analysis of the deposited data

How the results depend on the processing

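The fall of Cirbp and the difference between Cirbp and Rbm3 or Rbm3-ps kept their direction under every alternative run; leaving out 1 array each gave -1.01 to -0.89 for Cirbp, -0.35 to -0.20 for the brighter Rbm3 or Rbm3-ps probe set and -0.72 to -0.63 for their difference, for which 7 arrays cannot reach a permutation p under 0.05. Averaging both probe sets of Rbm3 or Rbm3-ps turned its difference to 0.26 and its correlations of deviations to 0.84 with Hsph1, 0.32 with Hspa1b and -0.67 with Dbp. The 2 probe sets oppose each other, and the dimmer one, near background in controls, weighs more in the average. Its difference was 0.81 (SD 0.48 in POMCMfn2KO), against -0.28 (SD 0.23) for the brighter one. The dimmer probe set was 0.81 with no filter (adjusted p = 0.0644) and with a trended and robust variance (0.0536), 0.68 without POMCMfn2KO 2 and 3, and 0.65 to 0.93 without single arrays. No count of member probe sets is given, because the dimmer one was tested only through its POMCMfn2KO values. With a filter at 7 it was untested.

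Genes past the threshold numbered 2152, 820 to 2760 without single arrays (821, 820 and 863 without control 1, 2 and 3, and 1399 without POMCMfn2KO 3), 640 without POMCMfn2KO 2 and 3 and 3209 with array weights by genotype. Without POMCMfn2KO 2 and 3, 7 heat shock genes, 4 temperature-cued genes and 1 splicing regulator rose, and 3 clock genes and 0 cold shock domain or glycine-rich genes fell. A filter at 7 left 5 clock genes that fell, of 12 tested. Without single arrays, 3 to 9 clock genes fell, 2 to 9 splicing regulators and 8 to 13 heat shock genes rose, 1 to 5 cold shock domain or glycine-rich genes rose and 0 to 1 fell, and 6 to 8 temperature-cued genes rose and 0 to 1 fell.

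Without single arrays the correlation of deviations with Hspa1b ranged from -0.29 to 0.73 for Cirbp, -0.68 to 0.37 for the brighter and -0.42 to 0.67 for the dimmer probe set, each turning sign without POMCMfn2KO 4. With Hsph1 and Dbp it ranged from -0.82 to -0.37 and 0.33 to 0.74 for Cirbp, -0.93 to -0.86 and 0.45 to 0.90 for the brighter, and 0.81 to 0.95 and -0.88 to -0.46 for the dimmer probe set. Replicate numbers 1 to 3 occur in both groups. Deviations of same-numbered arrays correlated at 0.04, 0.04 and -0.03, so no pairing by number was seen, though such values cannot exclude it. With the replicate block, 1891 genes passed, Cirbp differed by -0.90 (limma adjusted p = 0.00501), 4 clock genes fell and 2 splicing regulators rose. Values near 5.80 are limited by background. The dimmer probe set as a result of its own, and its correlations, were added after seeing the data.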
